A study of Homo sapiens with 6 samples.

Results

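Chromosomes 9 and 22 are the 2 partners of the translocation that makes the BCR-ABL1 fusion gene of chronic myeloid leukaemia, and this account describes the open chromatin listed on them in K562, an established human leukaemia line that carries the fusion. The members were all distinct intervals that the deposited peak lists place on either chromosome, 2430 of 48967 intervals over 6 lists. They were divided by position on the hg19 build into 4 windows whose bounds are positions, with no measured value in the rule: chromosome 22 below 23.65 Mb (chr22 proximal, 375 intervals), chromosome 9 between 133.58 and 134.3 Mb (the ABL1 window, 37 intervals), chromosome 9 below 40 Mb (the short arm, 266 intervals) and the remainder (1752 intervals).

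ATAC-seq was the assay: a transposase cuts DNA that is not packed away and tags it for sequencing, so that open sites collect fragments. The 6 groups, of 1 library each, were K562 overexpressing the E669Q form of SLFN11 with 1000 nM camptothecin (CPT) for 4 h or with DMSO, K562 overexpressing wild-type (WT) SLFN11 with CPT or with DMSO, and the vector control with CPT or with DMSO. SLFN11 is a Schlafen-family protein that acts at stressed replication forks, E669Q changes 1 residue of its ATPase domain, and CPT traps topoisomerase I on DNA and so stalls replication. All 6 groups come from 1 cell line, and the labels do not say how many clones make up each modified line. With 1 library per group, no difference between single groups has a replicate check.

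In the Philadelphia chromosome the start of BCR, from chromosome 22, is joined to most of ABL1, a tyrosine kinase gene on chromosome 9, and the fused kinase is always active. K562 is known to hold extra copies of the fused segment, which reach from chromosome 22 up to the BCR breakpoint and from ABL1 into the DNA beyond it on chromosome 9, and to have lost material of the short arm of chromosome 9, including the tumour suppressor gene CDKN2A. Extra copies of a segment bring extra sequencing fragments to its open sites and to the DNA between them alike. A peak caller divides the fragments at a summit by a local background, and both values were recovered here from the deposited ones. The recovered background moved in steps of 1 fragment in a 10 kb window, and no input library was among the samples. It can thus include fragments of the interval itself and of its neighbours, so it is not independent of pileup or interval density. Copy number itself was not measured, and its part in the values below was not tested. The summit pileup is the number of fragments stacked at the highest point of an interval, the local background is the number that the caller took as the chance level there, and the authors' fold is their ratio after adding 1 to each. In the plain order of the chromosome, taken from a RefSeq gene table of build GRCh38.p14, 104 protein-coding genes of chromosome 22 precede BCR and 346 follow it, while ABL1 follows FUBP3, PRDM12 and EXOSC2 and precedes QRFP, FIBCD1, LAMC3, AIF1L and NUP214.

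Recovered depth, relative to vector with DMSO as 1.00, was 2.22 in E669Q with CPT, 1.33 in E669Q with DMSO, 1.09 in WT SLFN11 with CPT, 1.72 in WT SLFN11 with DMSO and 1.09 in vector with CPT. The lists held 12337, 8365, 5562, 11651, 5806 and 5246 intervals in the order E669Q with CPT, E669Q with DMSO, WT SLFN11 with CPT, WT SLFN11 with DMSO, vector with CPT and vector with DMSO, and this order of libraries is kept below wherever 6 values stand together. Median summit pileups over the other chromosomes were 8 to 11 fragments, so single intervals rest on few fragments. The 2 chromosomes took 4.73% to 5.21% of the intervals in every list.

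Intervals were dense in chr22 proximal and in the ABL1 window and sparse on the chromosome 9 short arm, in every library. Chr22 proximal held 84, 67, 54, 75, 45 and 50 intervals, which is 11.3, 8.98, 7.24, 10.1, 6.03 and 6.71 per Mb over the 7.46 Mb that remain after the peakless start of the chromosome is set aside. The other chromosomes held 4.35, 2.94, 1.95, 4.10, 2.04 and 1.85 intervals per Mb. The density of chr22 proximal was thus above that of the other chromosomes in 6 of 6 libraries, by 1.60 ± 0.24 on the log2 scale (mean ± SD, n = 6), or 3.03-fold.

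The ABL1 window, of 0.72 Mb, held 9, 8, 4, 9, 4 and 3 intervals, or 12.5, 11.1, 5.56, 12.5, 5.56 and 4.17 per Mb. It stood above the other chromosomes by 1.53 ± 0.24 (log2, n = 6), again in 6 of 6 libraries. The 10 Mb from 130 to 140 Mb, which include the window, held 95, 87, 49, 103, 46 and 32 intervals. Over the 6 lists, 95 lay between 131 and 132 Mb and 80 between 139 and 140 Mb, against 37 in the window. A high density was thus not particular to the window on this part of chromosome 9. The short arm held 63, 41, 32, 70, 30 and 30 intervals, or 1.57, 1.02, 0.80, 1.75, 0.75 and 0.75 per Mb. Its density was lower by 1.37 on the log2 scale in 6 of 6 libraries (mean log2 difference -1.37 ± 0.12, n = 6). A peakless stretch above 5 Mb was kept in the length of the short arm, while such stretches of the other chromosomes were left out of theirs. With all such stretches kept, the mean log2 difference was -1.27.

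A two-sided exact sign-flip permutation test over the 6 libraries gave p = 0.0312 for each of these 3 density differences, the smallest p that 6 libraries allow, and p = 0.0455 after Benjamini-Hochberg adjustment over 16 tests (4 windows by 4 measures). Because the libraries share a parental line, they repeat the measurement of 1 genome and are not independent replicates of a window difference. This p arises whenever all 6 values share a sign, whatever their spread. Here and below, a difference that passes thus shows only a common direction over 6 libraries of 1 genome. The chr22 proximal difference depends on the length used, as chromosome 22 has no listed interval before 16.2 Mb. With the peakless stretches of all chromosomes counted in, the mean log2 difference was 0.04 (adjusted p = 0.75, same exact test).

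**Figure D1:**
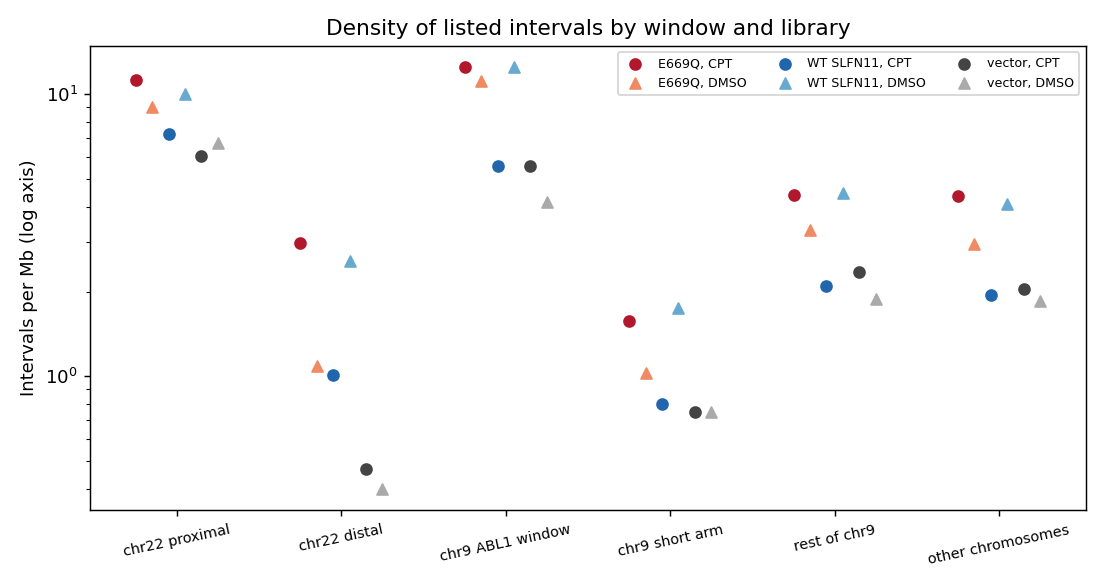
Intervals per Mb (log axis) in each window, for 6 libraries coloured by line, with circles for CPT and triangles for DMSO. In every library chr22 proximal and the ABL1 window lie above the other chromosomes, and chr22 distal and the chromosome 9 short arm lie below chr22 proximal.

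Chromosome 22 was divided at the window edge. Its distal portion, beyond 23.65 Mb, held 82, 30, 28, 71, 13 and 11 intervals over 27.6 Mb, or 2.97, 1.09, 1.01, 2.57, 0.471 and 0.399 per Mb, although it carries most of the genes of the chromosome. Per 100 protein-coding genes by the gene order above, with BCR counted as proximal (105 genes), the proximal portion held 80.0, 63.8, 51.4, 71.4, 42.9 and 47.6 intervals. The distal portion held 23.7, 8.67, 8.09, 20.5, 3.76 and 3.18 per 100 genes, so the proximal value was the higher one in each library.

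The share of chromosome 22 intervals that lay in the proximal portion was 50.6%, 69.1%, 65.9%, 51.4%, 77.6% and 82.0%. It was lowest in the 2 deepest libraries and highest in the 2 vector libraries. Its difference from vector was -27.0 percentage points in E669Q with CPT (Newcombe 95% interval -38.6 to -12.6, which covers counting error only), and -30.6 points in WT SLFN11 with DMSO (-41.7 to -16.7). At nearly equal depth, WT SLFN11 with CPT held 54 proximal and 28 distal intervals, against 45 proximal and 13 distal in vector with CPT, a difference of -11.7 points whose interval includes 0 (-25.7 to 3.67). The part of depth in these shares was not tested.

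Merged over the 6 lists, chr22 proximal held 108 regions, of which 29 were found in all 6 lists, or 26.9% (exact Clopper-Pearson 95% interval 18.8% to 36.2%). Over the other chromosomes 2040 of 16573 regions, or 12.3%, were found in all 6. Of 134 regions of distal chromosome 22, 1 was found in all 6, and 79 were found in 1 list. On the short arm of chromosome 9, 5 of 108 regions were found in all 6 (4.63%, 1.52% to 10.5%), and in the ABL1 window 2 of 13.

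The local background was raised across most of chr22 proximal. Over all intervals of the window its median was 2.80, 2.40, 3.17, 2.90, 2.44 and 2.02 times the median of the other chromosomes. Distal chromosome 22 had medians of 0.699, 0.638, 0.722, 0.653, 0.571 and 0.557 times that median, below 1 in all 6 libraries. On the regions found in all 6 lists, which hold the same sites in each library, the background of chr22 proximal exceeded that of the other chromosomes by 1.08 ± 0.31 on the log2 scale (n = 6, higher in 6 of 6 libraries; exact sign-flip test, adjusted p = 0.0455). The summit pileup exceeded it by 0.67 ± 0.22 (6 of 6 libraries; same exact test, adjusted p = 0.0455). The authors' fold did not move with them: its mean log2 difference was -0.01 ± 0.08, above 0 in 2 libraries and below in 4 (exact p = 0.625, adjusted p = 0.714). The fold adds 1 to both values, so it is not the plain ratio of pileup to background. Background was raised by more than pileup (1.08 against 0.67), so a level fold does not mean that this plain ratio was unchanged.

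In the ABL1 window, whose all-6 values rest on 2 regions, the background was higher by 1.26 ± 0.08, the pileup by 1.20 ± 0.19 and the authors' fold by 0.27 ± 0.14 on the log2 scale, each in 6 of 6 libraries (n = 6; exact sign-flip test, adjusted p = 0.0455 for each). The 2 regions were unlike: chr9:134000592-134001417 had 5.39 to 7.18 times the median background of the other chromosomes, and chr9:133587988-133588390 had 0.762 to 1.65 times. Over all intervals of the window the background difference was 0.97 and did not pass (adjusted p = 0.0769 by the same exact test), the pileup difference was 0.44 (adjusted p = 0.0455) and the fold difference 0.001 (adjusted p = 1.00). On the short arm, with 5 regions found in all 6 lists, the background was lower (mean log2 difference -0.50 ± 0.10, lower in 6 of 6 libraries) and so was the fold (-0.14 ± 0.12, 6 of 6 libraries), both with an adjusted p of 0.0455 by the exact test. The pileup there averaged -0.32 ± 0.24 on the log2 scale and did not pass (5 of 6 libraries below 0, exact p = 0.0625, adjusted p = 0.0833). The fold difference of the short arm was not past the threshold when intervals under a fold of 5 were left out (-0.11, adjusted p = 0.346 by the exact test), and it changed sign in lists cut to equal length (0.05, adjusted p = 0.643).

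The remainder of both chromosomes held 70 regions found in all 6 lists, 69 of them on chromosome 9. On these, background, pileup and fold differed from those of the other chromosomes by 0.01, 0.01 and 0.005 on the log2 scale, and none passed the test (exact adjusted p = 0.833, 1.00 and 0.714). Over all intervals its fold (-0.03) and background (-0.07) were lower and passed (exact adjusted p = 0.0455 each), while in lists of matched length its background was higher by 0.10 and passed (exact adjusted p = 0.0417). Its density was lower by a mean log2 difference of -0.13 ± 0.09 (6 of 6 libraries, exact adjusted p = 0.0455). The distal portion of chromosome 22, with the low density and background given above, is part of it, while the remainder of chromosome 9 held 4.41, 3.30, 2.10, 4.46, 2.34 and 1.88 intervals per Mb, above the density of the other chromosomes in every library.

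**Figure D2:**
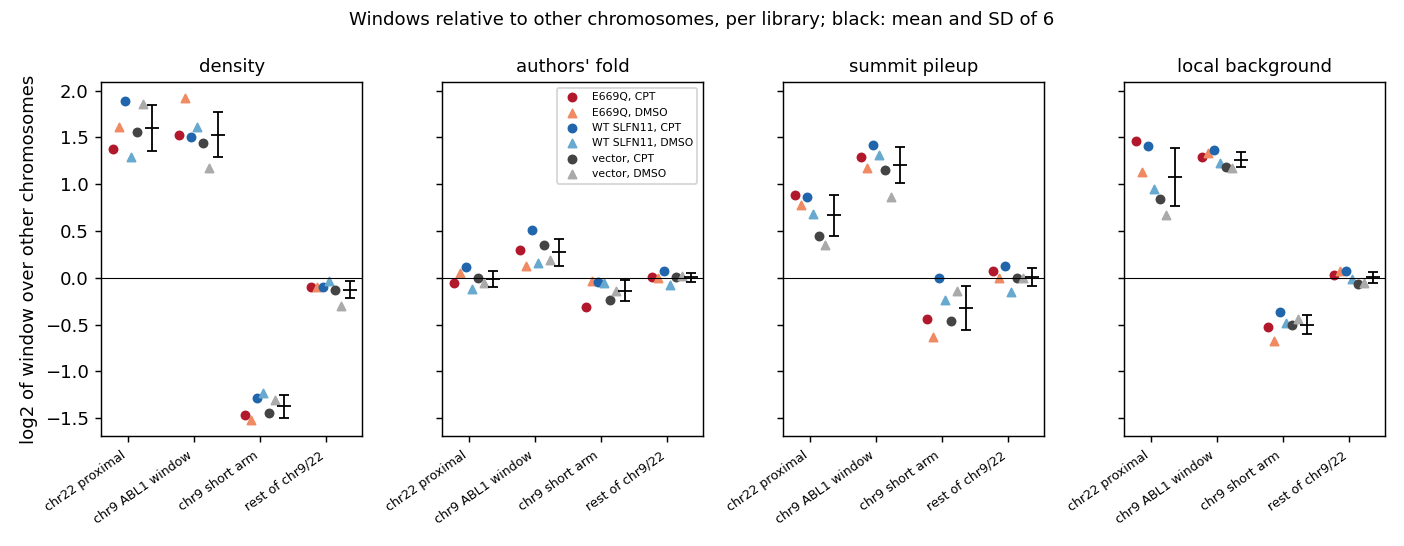
Log2 of the window value over that of the other chromosomes for interval density, the authors' fold, summit pileup and local background, 1 point per library, with the mean and SD of 6 libraries in black. Background and pileup of chr22 proximal and the ABL1 window lie above 0 in all 6 libraries, while the fold of chr22 proximal scatters around 0.

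Single intervals showed the same division. With a high background taken as at least 2 times the median of the other chromosomes, 57 of 84, 43 of 67, 43 of 54, 52 of 75, 25 of 45 and 27 of 50 intervals of chr22 proximal were high. In the whole lists 11.3%, 11.2%, 10.3%, 12.2%, 10.7% and 11% of intervals were high. On distal chromosome 22 the count was 0 in each library, of 82, 30, 28, 71, 13 and 11 intervals, which allows a share of up to 4.40% in the deepest list (exact 95% limit, counting error only), and the highest value reached there was 1.62 times the median. On the short arm 2, 0, 1, 2, 1 and 0 intervals were high.

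The listed intervals bracketed the step on chromosome 22 around the window edge, most closely in E669Q with CPT. In E669Q with CPT, the deepest library, the last high interval started at chr22:23623991 with 3.60 times the median, and the next interval, at chr22:23744832, had 0.576 times. In E669Q with DMSO the last high interval started at 23624098 with 2.17 times the median, and the first interval past the edge, at 24181199, had 1.23 times. In the other 4 libraries the last high interval started between 23522597 and 23566154 with 2.77 to 4.76 times the median. The first interval beyond the edge started between 24181058 and 24666761 in these libraries and had 0.486 to 0.745 times. Where the step lay between these positions cannot be read from the lists. The last high interval thus lay before 23.65 Mb in all 6 lists, and no interval after it reached 2 times the median.

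On the other side the change rested on few intervals. In 1 Mb bins, the median background was 0.441 to 1.06 times that of the other chromosomes between 18 and 19 Mb over the 6 libraries, and 1.71 to 2.81 times between 19 and 20 Mb. The first of these bins held 1 to 6 intervals per library and the next 10 to 15. Between 17 and 18 Mb, with 1 to 7 intervals per library, the median background was 0.923 to 3.92 times. It was 1.93 to 3.41 between 20 and 21 Mb, 2.28 to 3.50 between 21 and 22 Mb, 1.85 to 2.89 between 22 and 23 Mb and 2.13 to 3.78 between 23 and 24 Mb, and it was 0.540 to 0.778 between 24 and 25 Mb. The raised background was thus seen in every library from 19 Mb to the edge of the window. Below 19 Mb the intervals were too few to place a lower boundary. One region below 19 Mb stood apart: chr22:17081992-17083077, found in all 6 lists, had 2.60 to 4.93 times the median. This region and the limit of 19 Mb were singled out after their values were seen.

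Among all 533 bins of 1 Mb in the genome with at least 30 intervals over the 6 lists and 1 in each, 20 had a mean background of at least 2 times the median, and 4 of these were the bins of chromosome 22 between 19 and 23 Mb. They ranked 11, 12, 13 and 14, with means over the libraries of 3.01, 2.76, 2.34 and 2.29. Of the 11 ranked bins of chromosome 9, 0 reached 2, and the bins that hold the ABL1 window did not meet the minimum and were not ranked. The raised stretch was thus among the highest in these lists but not the highest.

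**Figure D3:**
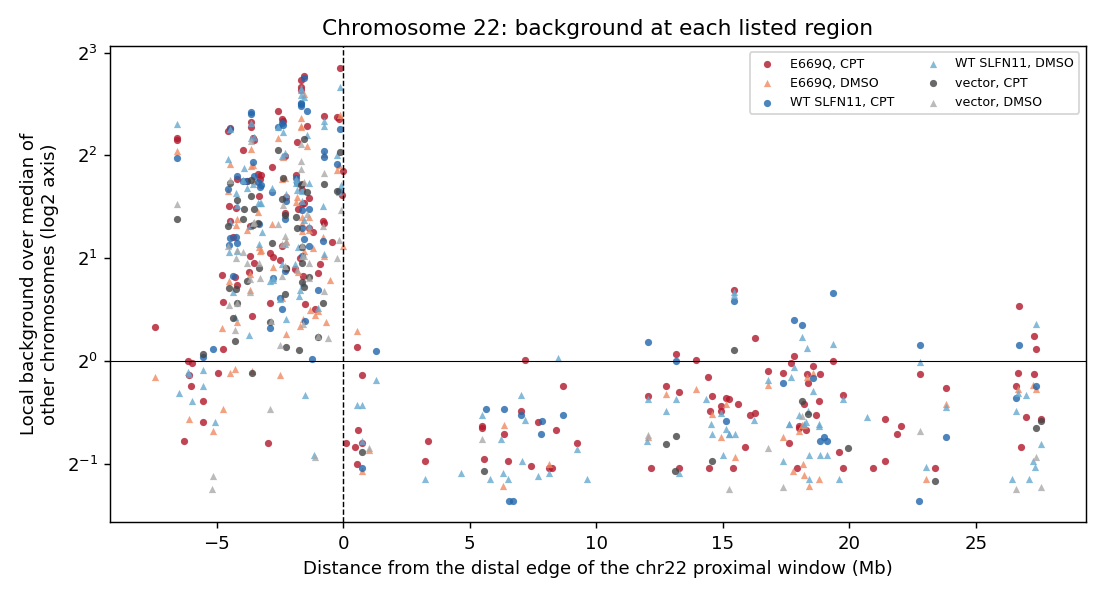
Local background of each chromosome 22 interval relative to the median of the other chromosomes (log2 axis) against its distance from the distal window edge in Mb, for 6 libraries. Values of 2 and above fill the stretch just left of the edge, and right of it no interval of any library reaches 2.

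The 3 regions of chr22 proximal with the highest mean fold lay inside this stretch, each in all 6 lists. The first, chr22:22089808-22090603, had summit pileups of 71, 47, 52, 70, 34 and 22 fragments over backgrounds of 6.85, 4.16, 4.01, 5.22, 2.45 and 1.73. Its authors' fold was 9.17, 9.31, 10.6, 11.4, 10.1 and 8.42. Pileup and background were thus highest or nearly so in the 2 deepest libraries, while the fold stayed between 8.42 and 11.4. The second, chr22:21995928-21996769, had pileups of 74, 35, 46, 53, 22 and 30, folds of 7.95 to 10.7 and a background of 3.27 to 6.64 times the median of the other chromosomes. The last of them, chr22:21271145-21271951, had pileups of 53, 40, 32, 50, 23 and 16, folds of 6.86 to 11.04 and a background of 2.85 to 5.05 times the median. In all 3 regions the SLFN11 libraries of both forms had higher pileups than the 2 vector libraries, and also a depth at or above theirs.

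The all-6 regions nearest the edge were chr22:22862788-22863384, chr22:22901163-22901803 and chr22:23412139-23412479, with relative backgrounds of 1.48 to 2.84, 3.30 to 5.20 and 2.00 to 5.18. Past the edge the only region found in all 6 lists was chr22:51021065-51021584, near the end of the chromosome, with 0.525 to 1.29 times the median and pileups of 10, 10, 8, 15, 5 and 5. No annotation of the hg19 build was used, so none of these regions is assigned to a gene or a promoter, and their sequences are not shown.

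The ABL1 window held 13 regions, and the high backgrounds among them lay in its middle. The first region, chr9:133587988-133588390, was found in all 6 lists with pileups of 23, 7, 11, 9, 10 and 9 and a relative background of 0.762 to 1.65. The next, chr9:133646491-133646608, was found in vector with CPT alone, at 0.905. Backgrounds were higher from chr9:133741914-133742171 on. That region was found in E669Q with CPT, E669Q with DMSO and WT SLFN11 with CPT, at 2.63, 1.94 and 1.75 times the median.

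The strongest region of the window was chr9:134000592-134001417, found in all 6 lists with pileups of 70, 56, 48, 90, 39 and 31 fragments. Its relative background was 6.11, 6.03, 5.46, 7.18, 5.57 and 5.39, and its authors' fold was 9.94, 11.1, 11.5, 12.4, 9.88 and 8.44. Every library was thus above 5 times the median at this site, vector included, though this background can include fragments of the region itself. Before it, chr9:133873721-133873977 was found in 2 lists at 2.37 and 4.12 times the median, and chr9:133922172-133922510 in 3 lists at 2.67 to 3.48. Beyond it, chr9:134013226-134013362 was found in 1 list at 1.81, chr9:134053733-134053946 in 3 lists at 2.59 to 3.30 and chr9:134055996-134056136 in 1 list at 2.96.

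The highest backgrounds after the strongest region were those of chr9:134152034-134152375, found in WT SLFN11 with DMSO alone at 6.79 times the median, and of chr9:134153455-134153642, found in 2 lists at 4.41 and 6.51. The last 2 regions of the window were low. Chr9:134248798-134249318, found in 5 lists, had 0.889 to 1.18, and chr9:134269302-134269667, found in 3 lists, had 0.600 to 0.959. Backgrounds of at least 2 times the median began at position 133741923 at the earliest and ended at 134153642 at the latest, so the raised stretch was shorter than the window at both ends. Outside the window, the nearest regions found in all 6 lists were chr9:132597284-132597926, at 1.11 to 1.95 times the median, and chr9:135230176-135230658, at 0.905 to 1.38.

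**Figure D4:**
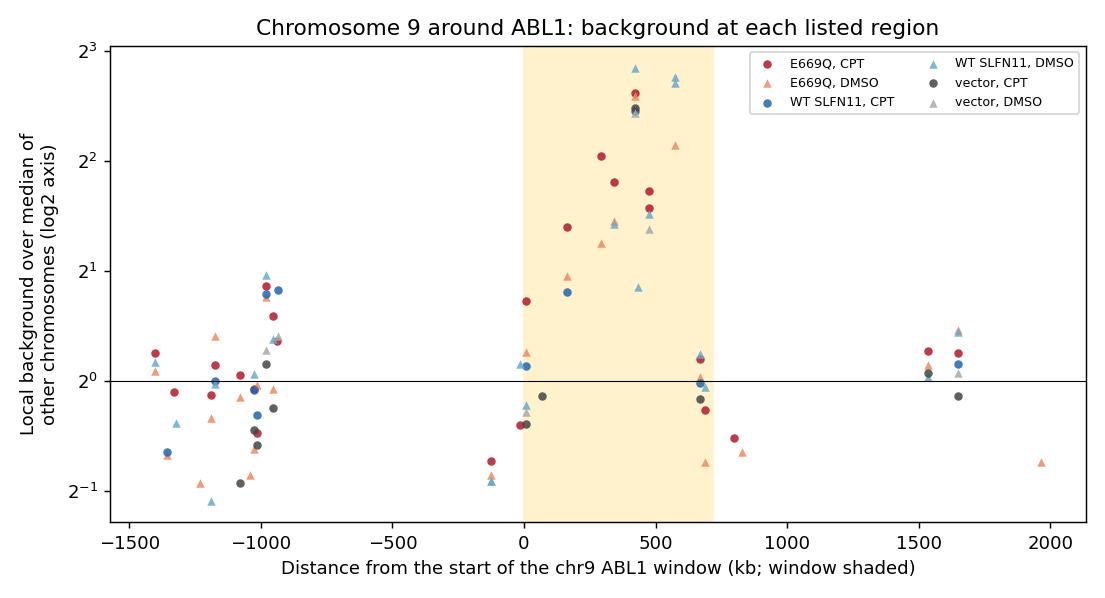
Local background of each chromosome 9 interval near ABL1 relative to the median of the other chromosomes (log2 axis) against distance from the start of the ABL1 window in kb, with the window shaded. Values above 2 lie in the middle of the window, while the intervals at both of its ends are near 1.

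The short arm of chromosome 9 gave few and weak intervals. Its median background was 0.771, 0.738, 0.757, 0.704, 0.659 and 0.738 times the median of the other chromosomes, a narrow range over 6 libraries of unequal depth. Each list has a lowest background, under which no value can show. At it stood 15.9%, 2.44%, 18.8%, 12.9%, 6.67% and 20.0% of short-arm intervals. The shares on the other chromosomes were 4.30%, 2.95%, 6.32%, 6.33%, 2.68% and 5.73%. Between 20.7 and 26.9 Mb no library listed an interval, a stretch of 6.26 Mb, which was kept in the length of the window. Over the 10 Mb from 20 to 30 Mb, 8 intervals were listed in all, over 5 of the 6 libraries, against 76 between 0 and 10 Mb, 54 between 10 and 20 Mb and 128 between 30 and 40 Mb. Whether the peakless stretch is the deleted DNA cannot be read from lists of peaks, since closed DNA leaves the same gap.

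Of the short-arm regions found in all 6 lists, chr9:4792486-4793164 had the highest mean fold after narrow regions were set aside, with pileups of 15, 7, 12, 14, 8 and 11 and a relative background of 0.738 to 1.22. The other two were chr9:2015041-2015368, with pileups of 13, 12, 9, 18, 10 and 10 at 1.11 to 1.62 times the median, and chr9:37485722-37486156, with pileups of 11, 7, 7, 10, 8 and 7 at 0.635 to 0.992. These pileups, of 7 to 18 fragments, lay below those of the 3 top regions of chr22 proximal in the same libraries. In the remainder, the 3 regions of highest mean fold, chr9:66970984-66971592, chr9:67320358-67320941 and chr9:69710737-69711330, lay close to the centromere. The fold of the first was 33.4 to 36.3, but its pileup could not be recovered. The other two had folds of 20.6 to 26.0 and 19.9 to 26.2 over backgrounds of 3.11 to 5.32 and 2.95 to 4.73 times the median. Folds of this size beside the centromere were found in all 6 groups.

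The question of the CPT comparison was whether treatment moved the accessible sites of these chromosomes. The number of intervals on both chromosomes was 600 in E669Q with CPT, against 417 with DMSO, 290 in WT SLFN11 with CPT, against 591 with DMSO, and 284 in vector with CPT, against 248 with DMSO. As a share of the list the change was small: the 2 chromosomes took 4.86% in E669Q with CPT and 4.99% with DMSO, 5.21% in WT SLFN11 with CPT and 5.07% with DMSO, and 4.89% in vector with CPT and 4.73% with DMSO. The differences of CPT minus DMSO were -0.12 percentage points (95% interval -0.73 to 0.47), 0.14 points (-0.55 to 0.87) and 0.16 points (-0.64 to 0.96), each with an interval that includes 0. Over the 3 lines the mean was 0.06 ± 0.16 points (SD, n = 3; two-sided exact sign-flip test, p = 0.50, adjusted p = 0.958 over 23 comparisons). With 3 lines this test cannot give a p under 0.25.

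By window, the share of the whole list that lay in chr22 proximal differed with CPT in 1 line beyond counting error. It was 0.971% of the list in WT SLFN11 with CPT and 0.644% with DMSO, a difference of 0.33 points (95% interval 0.05 to 0.65). It was 0.681% in E669Q with CPT and 0.801% with DMSO, a difference of -0.12 points (-0.37 to 0.11), and 0.775% in vector with CPT and 0.953% with DMSO, a difference of -0.18 points (-0.54 to 0.17). The 3 lines did not share a direction, and the exact test over them gave p = 1.00. The WT SLFN11 library with CPT was also the shallower one of its pair, at 1.09 against 1.72, and the part of depth in this difference was not tested. Within chromosome 22, the proximal share of intervals differed with CPT beyond counting error in 2 lines and in opposite directions. The difference was -18.5 points in E669Q (-29.7 to -6.14), 14.5 points in WT SLFN11 (1.09 to 26.8) and -4.38 points in vector (-18.8 to 10.1).

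The background of chr22 proximal, relative to the other chromosomes on the regions found in all 6 lists, was higher with CPT than with DMSO in all 3 lines. On the log2 scale it was 1.46 in E669Q with CPT and 1.13 with DMSO, 1.40 in WT SLFN11 with CPT and 0.95 with DMSO, and 0.84 in vector with CPT and 0.67 with DMSO. The mean difference was 0.32 ± 0.14 (n = 3; exact sign-flip test, p = 0.25, the smallest possible, adjusted p = 0.958), so it did not pass. The part of depth in it was not tested. The background difference was 0.04 ± 0.09 in the ABL1 window and 0.07 ± 0.12 on the short arm (n = 3 each). The pileup of chr22 proximal (0.13 ± 0.05) and the pileup (0.18 ± 0.10) and fold (0.23 ± 0.10) of the ABL1 window were also above 0 in all 3 lines, with the same exact p = 0.25 and adjusted p = 0.958.

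Intervals listed with CPT that overlap none of the DMSO list of their line are called gained, and the reverse lost. In the whole lists 45.2% of intervals were gained in E669Q, 15.1% in WT SLFN11 and 45.1% in vector, and 19.0%, 59.5% and 39.5% were lost. On chromosomes 9 and 22 together 47.7%, 16.9% and 48.9% were gained, and 24.5%, 59.6% and 41.5% were lost. The exact 95% interval of E669Q lost (20.4% to 28.9%) lies above its whole-list share. Those of the other shares of both chromosomes include theirs. In chr22 proximal, 28 of 84 intervals were gained in E669Q (33.3%), 3 of 54 in WT SLFN11 (5.56%, exact 95% interval 1.16% to 15.4%) and 12 of 45 in vector (26.7%). Lost there were 11 of 67 in E669Q (16.4%), 24 of 75 in WT SLFN11 (32.0%, 21.7% to 43.8%) and 17 of 50 in vector (34.0%). As point values, both shares of each line were thus below those of the whole lists. All 6 were also below in lists of matched length and with the deeper list thinned to the depth of the shallower one. Among intervals of a fold of at least 5, 5 of 6 were below. The exact 95% intervals of WT SLFN11 gained, E669Q lost (8.49% to 27.5%) and vector lost (21.2% to 48.8%) include the whole-list share. Those of E669Q gained (23.4% to 44.5%), vector gained (14.6% to 41.9%) and WT SLFN11 lost lie below it.

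On the short arm the shares ran the other way. There 38 of 63 intervals were gained in E669Q (60.3%), 8 of 32 in WT SLFN11 (25.0%) and 20 of 30 in vector (66.7%), and 16 of 41 (39.0%), 46 of 70 (65.7%) and 20 of 30 (66.7%) were lost. As point values, all 6 shares were above those of the whole lists, also in lists of matched length and with the deeper list thinned. With a −log10 q of at least 5, with a fold of at least 5 and without intervals under 150 bp, 5 of 6 were above. The exact Clopper-Pearson intervals of WT SLFN11 gained (11.5% to 43.4%) and lost (53.4% to 76.7%) include the whole-list share. Those of E669Q gained (47.2% to 72.4%) and lost (24.2% to 55.5%) lie above it. Those of vector gained and lost (47.2% to 82.7% each) also lie above it. In the ABL1 window counts were too small to read: 3 of 9, 1 of 4 and 2 of 4 intervals were gained in E669Q, WT SLFN11 and vector, and 2 of 8, 6 of 9 and 1 of 3 were lost. Median −log10 p was 9.70 to 12.0 in chr22 proximal and 6.80 to 9.16 on the short arm, and the part of this strength in the overlap was not tested.

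**Figure D5:**
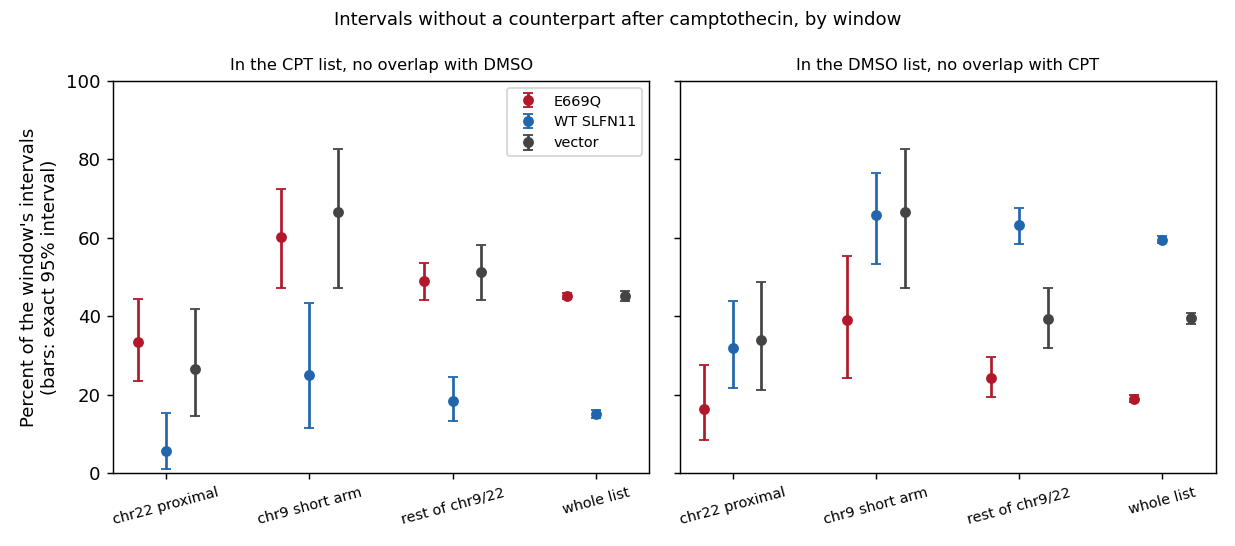
Percent of CPT intervals that meet none of the DMSO intervals of the same line (left) and the reverse (right), by window, for the 3 lines, with exact 95% intervals that cover counting error only. Points of chr22 proximal lie below those of the whole list, and points of the chromosome 9 short arm lie above them. Some of the intervals of both windows include the whole-list share.

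By authors' fold, the leading gained and lost intervals were mostly in the remainder of chromosome 9. That portion also held most intervals of the 2 chromosomes in each list: 362 of 600, 271 of 417, 172 of 290, 366 of 591, 192 of 284 and 154 of 248. No excess there is drawn from the leading intervals. The first gained interval in E669Q, chr9:42819063-42819187, had a fold of 24.7, and the first lost one in WT SLFN11, chr9:44070666-44070789, a fold of 24.9. Both are 125 bp or shorter and lie beside the centromere, and each was also listed in at least 1 further library. Inside the 2 windows around the fusion, 1 gained interval was among the leading 3 of its line. It was chr9:133741944-133742171 in WT SLFN11, with a pileup of 13 over a background of 1.04 and a fold of 6.85, and E669Q listed it with CPT and with DMSO. Among the leading 3 lost intervals of E669Q was chr22:16193023-16193266 in chr22 proximal. It had a pileup of 11, a background of 0.618 and a fold of 7.42, and no other library listed it. In vector the leading lost interval was chr22:21132130-21132351, with a pileup of 13, a background of 0.577 and a fold of 8.88, and all 4 libraries of the SLFN11 lines listed it.

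The lines were compared with vector at the same treatment. In the whole lists, 60.5% of intervals of E669Q with CPT overlapped none of the vector list with CPT, and 56.1% of E669Q with DMSO, 42.5% of WT SLFN11 with CPT and 62.0% of WT SLFN11 with DMSO overlapped none of their vector list. In chr22 proximal the shares were 48.8%, 37.3%, 27.8% and 42.7%, and on the short arm 71.4%, 65.9%, 65.6% and 65.7%. As point values, each share of chr22 proximal was under that of its whole list and each share of the short arm above it. The short-arm shares rest on 45 of 63, 27 of 41, 21 of 32 and 46 of 70 intervals, and the last was close to its whole list. No interval for counting error was computed for these shares, so no difference of a window from its whole list is drawn from them.

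As a share of the list, chromosome 22 took 1.47% in WT SLFN11 with CPT and 0.999% in vector with CPT, a difference of 0.48 points (95% interval 0.07 to 0.89). It took 1.35% in E669Q with CPT, 0.35 points above vector (0.0005 to 0.66). With DMSO chromosome 22 differed from vector by -0.003 points in E669Q (-0.39 to 0.36) and by 0.09 points in WT SLFN11 (-0.29 to 0.43). Chr22 proximal itself took 0.644% in WT SLFN11 with DMSO and 0.953% in vector with DMSO, a difference of -0.31 points (-0.64 to -0.03). Chromosome 9 differed from vector by less than its counting error in all 4 pairs, between -0.37 and 0.26 points.

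The relative background of chr22 proximal was higher in the SLFN11 lines than in vector at both treatments. The log2 difference from vector was 0.62 in E669Q with CPT, 0.46 in E669Q with DMSO, 0.56 in WT SLFN11 with CPT and 0.27 in WT SLFN11 with DMSO. The pileup differed by 0.43, 0.43, 0.41 and 0.33. In the ABL1 window the same differences of background were 0.11, 0.16, 0.19 and 0.06, and on the short arm -0.02, -0.24, 0.14 and -0.05. The depths of these libraries are given above, and their part in the differences was not tested. Each is a difference between single libraries, with no replicate.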

How the data were processed

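Each library had its own deposited peak list, on hg19, with no pooling. MACS2 2.1.2, Bowtie2 2.2.6, Picard 2.9.2, SAMtools 1.8 and Trimmomatic 0.39 appear in the submitters' processing notes, without roles or settings. Read shifting, duplicate handling and read numbers are not given in the sources used. Each deposited peak carries the authors' fold (a ratio over local background), −log10 p-value, −log10 q-value and score.

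Entries with the same coordinates were counted as 1 interval. Pileup n and background b were recovered by assuming that the deposited fold is (n + 1)/(b + 1) and the deposited p the Poisson chance of more than n at mean b. This held within 0.001 in −log10 p for between 98.7% and 99.3% of a list's entries, and 1 interval of chromosome 9 per library gave none. On data simulated with these same formulas, the pileup was recovered in 500 of 500 cases per library. That checks the calculation only, and it cannot test whether the formulas are those of the caller. Depth was the lowest background over the step that 1 fragment makes in a 10 kb window. Fold, pileup and background were medians over regions found in all 6 lists, and window values were divided by those of the chromosomes other than 9 and 22. Densities leave out peakless stretches above 5 Mb on all chromosomes, which cut the length of the other chromosomes from 2901 to 2699 Mb. On chromosomes 9 and 22 these lay at the start of chromosome 22 and around the centre of chromosome 9. The stretch of 6.26 Mb on the short arm was kept. Lists were compared by an overlap of at least 1 bp.

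Tests were exact two-sided sign-flip tests over 6 libraries or 3 lines, with Benjamini-Hochberg adjustment over 16 and 23 tests. Shares carry Clopper-Pearson and differences Newcombe 95% intervals. Named regions were the 3 of highest mean fold per window among those of at least 150 bp in each list, all regions of the ABL1 window, the 3 all-6 regions nearest each edge and the 3 gained and 3 lost intervals of highest fold per line. The members, windows and lists were chosen with earlier results of these data known. The limit of 2 times the median, the 1 Mb bins with their ranks, the gene order, the proximal share of chromosome 22 and the alternatives for gained and lost shares by window were chosen after seeing the data. Planned gene lists and erythroid, lymphoid and myeloid marker loci were not analysed here for want of an annotation of that build, so the cell line was not checked against its markers. Software was scipy 1.17.1, numpy 2.4.6, pandas 2.3.3 and matplotlib 3.10.9 under Python 3.11.15.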

Additional observations from a re-analysis of the deposited data

Results flagged for a closer look

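The number of intervals on chromosomes 9 and 22 moved in opposite directions with CPT in different lines. The ratio of CPT over DMSO intervals was 1.44 in E669Q (600 and 417 intervals), 0.491 in WT SLFN11 (290 and 591) and 1.15 in vector (284 and 248). The difference between the lines was not tested, since each line has 1 library per treatment. Recovered depth moved the same way, at 2.22 with CPT and 1.33 with DMSO in E669Q, 1.09 and 1.72 in WT SLFN11, and 1.09 and 1.00 in vector, and its part in these ratios was not tested.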

How the results depend on the processing

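Differences below are mean log2 values of a window against the other chromosomes, from the exact sign-flip test. Of 294 alternative values, 57 changed as given below, and 237 kept their direction and their side of the threshold or, with no test, stayed within the spread. With only intervals of a −log10 q of at least 5, 13 tests remained, so that the smallest adjusted p was 0.0508 and none passed: density was 1.97 in chr22 proximal, 1.78 in the ABL1 window, -1.93 on the short arm and -0.22 in the remainder, background 0.90 and 1.66 and pileup 0.40 and 1.50 in chr22 proximal and the ABL1 window, and the fold of the ABL1 window 0.35. With the full window lengths, density was 0.0376, 1.63, -1.27 and -0.25 in these 4 windows, with adjusted p at or above 0.05. The first fell below the threshold because the peakless start of chromosome 22 entered its length.

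The fold of chr22 proximal, near 0, was 0.00616 above a fold of 5, 0.0349 without intervals under 150 bp and 0.00622 over all intervals. Over all intervals the ABL1 window had a fold of 0.0011 and a background of 0.97, which no longer passed. On the short arm the fold no longer passed above a fold of 5 (-0.11), against the other windows (-0.14) and over all intervals (-0.10), and was 0.0549 in lists of matched length. Its pileup passed above a fold of 5 (-0.41), without narrow intervals (-0.57), in lists of matched length (-0.45), against the other windows (-0.47) and over all intervals (-0.31). In the remainder, the fold was -0.0185 above a fold of 5, -0.0100 without narrow intervals and -0.0261 over all intervals, and the pileup -0.0412 above a fold of 5 and -0.0512 over all intervals. Its background was 0.10 in lists of matched length and -0.0661 over all intervals. Against the other windows of both chromosomes the remainder had a density of 0.13, a pileup of -0.53 and a background of -0.91. Without chromosome 9 from 40 to 75 Mb, an alternative chosen after seeing the data, its fold was -0.0703, its pileup -0.12 and its background -0.0669. The cause of these shifts was not tested.

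For both chromosomes together, a −log10 q of at least 5 moved the chromosome 22 share of WT SLFN11 (CPT minus DMSO) to 0.63 points, gained intervals in E669Q to 54.1% and lost ones in WT SLFN11 to 67.8%. In lists of matched length 39.3% were gained and 41.6% lost in E669Q, and 41.9% gained and 36.5% lost in WT SLFN11. With thinning these were 39.1%, 39.0%, 29.9% and 50.6%. A reciprocal overlap of 50% gave 63.5% and 47.5% in E669Q, 47.9% and 74.5% in WT SLFN11, and 61.3% and 55.6% in vector. By window, 5 of 6 shares of chr22 proximal lay below the whole list above a fold of 5, and 5 of 6 of the short arm lay above it at a −log10 q of 5, above a fold of 5 and without narrow intervals.

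Leaving out each library in turn moved no value by more than the spread between libraries, but 5 libraries cannot reach the threshold. No paired analysis was possible because the labels carry no replicate numbers, other than the pairing of CPT and DMSO by line that the comparison over 3 lines uses. The ABL1 window rests on 3 to 9 intervals per library.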
